A study of Mus musculus with 3 samples.

Results

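The genes encoded in the mouse mitochondrial genome were taken as all genes whose symbol starts with mt-, which gave 37 of the 55536 Ensembl genes in the expression tables. They comprise 13 mRNA genes, 2 ribosomal RNA genes and 22 tRNA genes, each with 1 annotated transcript on chrM of mm10. The libraries are total RNA-seq, made after depletion of ribosomal RNA. Each started from 1 µg of cytosolic RNA of C57BL/6J macrophages derived from bone marrow. These are primary cells, and all of them had received 100 ng/ml Lipid A, the lipid part of bacterial lipopolysaccharide and a ligand of TLR4, for 10 minutes. There is 1 group of 3 biological replicates and no group without Lipid A, so the data hold levels, their spread between libraries and the comparison of 2 quantifications of the same reads. The 3 libraries carry 1 donor identifier, sex and age were not collected, and nothing says that they came from separate animals or cultures, so tests between libraries measure a spread that may be technical.

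Gene counts totalled 33825547, 54667365 and 43176007 in replicates 1, 2 and 3. The second quantification totalled 37499131, 66949618 and 55268656 counts. All 10 macrophage markers examined reached 1 TPM (the share of transcripts after division by length, scaled to a fixed total) in each library, and their median was 625 ± 53.4 TPM (SD, n = 3). T cell, B cell and stromal marker lists summed to at most 0.17 TPM in any library, erythroid markers were listed at 0, and the 5 neutrophil markers summed to between 21.8 and 35.0 TPM, with Ly6g at 0. RNAs known to stay in the nucleus (Malat1, Neat1, Xist and Meg3) summed to 648, 427 and 341 TPM in replicates 1, 2 and 3, with Meg3 listed at 0 and the other 3 present in each library of the cytosolic fraction. Their part in the values below was not tested.

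The mitochondrial genome is a small circle that is transcribed from both strands into long precursors. The tRNAs lie between the mRNAs and ribosomal RNAs and are cut out, which releases the RNAs in between. The mRNAs encode core subunits of respiratory complexes I, III and IV and of ATP synthase (complex V), and the remaining subunits are encoded in the nucleus. Pieces of mitochondrial DNA have also been inserted into nuclear chromosomes, where annotations list them as pseudogenes.

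Nuclear copies bear directly on how reads of the mRNAs can be assigned. A search of the M21 transcripts found 11 nuclear genes that align to a mitochondrial transcript over 100 bases or more at 95% identity or more, and 9 of the 13 mRNAs have such a copy. Of the 11, 7 lie side by side on the minus strand of chromosome 1 within 4663 bases (chr1:24611535-24616197), in the order of the mitochondrial genes from mt-Co1 to mt-Nd4. The sequences below show how little separates a member from its copy. They are from the M21 transcripts, and capitals mark the bases that are not in the copy (mt-Co2, mt-Co3) or that differ (mt-Nd3).
mt-Co2: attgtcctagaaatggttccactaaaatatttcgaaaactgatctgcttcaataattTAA
Gm28661: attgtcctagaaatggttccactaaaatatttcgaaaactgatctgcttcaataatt
mt-Co3: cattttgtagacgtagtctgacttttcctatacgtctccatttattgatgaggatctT
Gm28437: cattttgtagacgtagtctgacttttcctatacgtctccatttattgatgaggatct
mt-Nd3: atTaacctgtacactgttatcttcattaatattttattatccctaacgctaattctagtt
Gm28438: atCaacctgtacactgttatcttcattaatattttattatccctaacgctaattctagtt

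The first 4 of these are 3′ ends and the last 2 are 5′ ends. Gm28661 (chr1:24614885-24615565) holds 681 of the 684 bases of mt-Co2 with no substitution, and Gm28437 holds 783 of the 784 bases of mt-Co3 with none. Gm10925 holds 678 of the 681 bases of mt-Atp6 and Gm10222 holds 294 of the 297 bases of mt-Nd4l, again with no substitution. Gm28438 holds 345 of the 348 bases of mt-Nd3 and differs by T3C, counted from the first base of mt-Nd3 and written with the mitochondrial base first. The remaining copies of the cluster are partial. Gm28439 matches the first 876 of the 1378 bases of mt-Nd4 exactly, and Gm29216 matches 483 of the 1545 bases of mt-Co1 with the single substitution A1066T.

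The share of each transcript that cannot be told from a nuclear gene was counted in windows of 31 bases. All windows of mt-Co2 (100%) also occur in an annotated nuclear transcript, as do 99.9% of those of mt-Co3, 99.5% of mt-Atp6, 98.9% of mt-Nd4l and 98.1% of mt-Nd3. These are the 5 mRNAs above 90%. mt-Co1 (63.9%) and mt-Nd4 (62.8%) lie between, mt-Nd5 is at 16.8%, mt-Nd2 at 13.5%, mt-Atp8 at 7.47%, mt-Nd6 at 7.36% and mt-Cytb at 6.55%. mt-Nd1 shares no window with any nuclear transcript.

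The 13 mRNAs held 0.607%, 0.528% and 0.636% of TPM in replicates 1, 2 and 3 of the gene tables (mean 0.591% ± 0.0558, SD, n = 3). In the second quantification their share of TPM was 0.402%, 0.209% and 0.213% (mean 0.275% ± 0.110, SD, n = 3), and with gene-table TPM rescaled over protein-coding genes it was 2.37% ± 0.160 (SD, n = 3). They held 0.664% ± 0.0464 of gene counts and 0.674% ± 0.0543 of those of the second quantification (both SD, n = 3). The nuclear copies together held a further 0.361% ± 0.0496 of TPM, so that members and copies summed to 0.951% ± 0.0955 (both SD, n = 3). Except for mt-Co2, the lowest value of any mRNA in a library was 82.1 TPM (mt-Co3, replicate 2). The plot of mRNA levels shows that adding copies moves mt-Co2, mt-Atp6 and mt-Co3 most. All of these are levels in the cytosolic fraction, and the share of mitochondrial RNA that it retained was not measured.

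**Figure D1:**
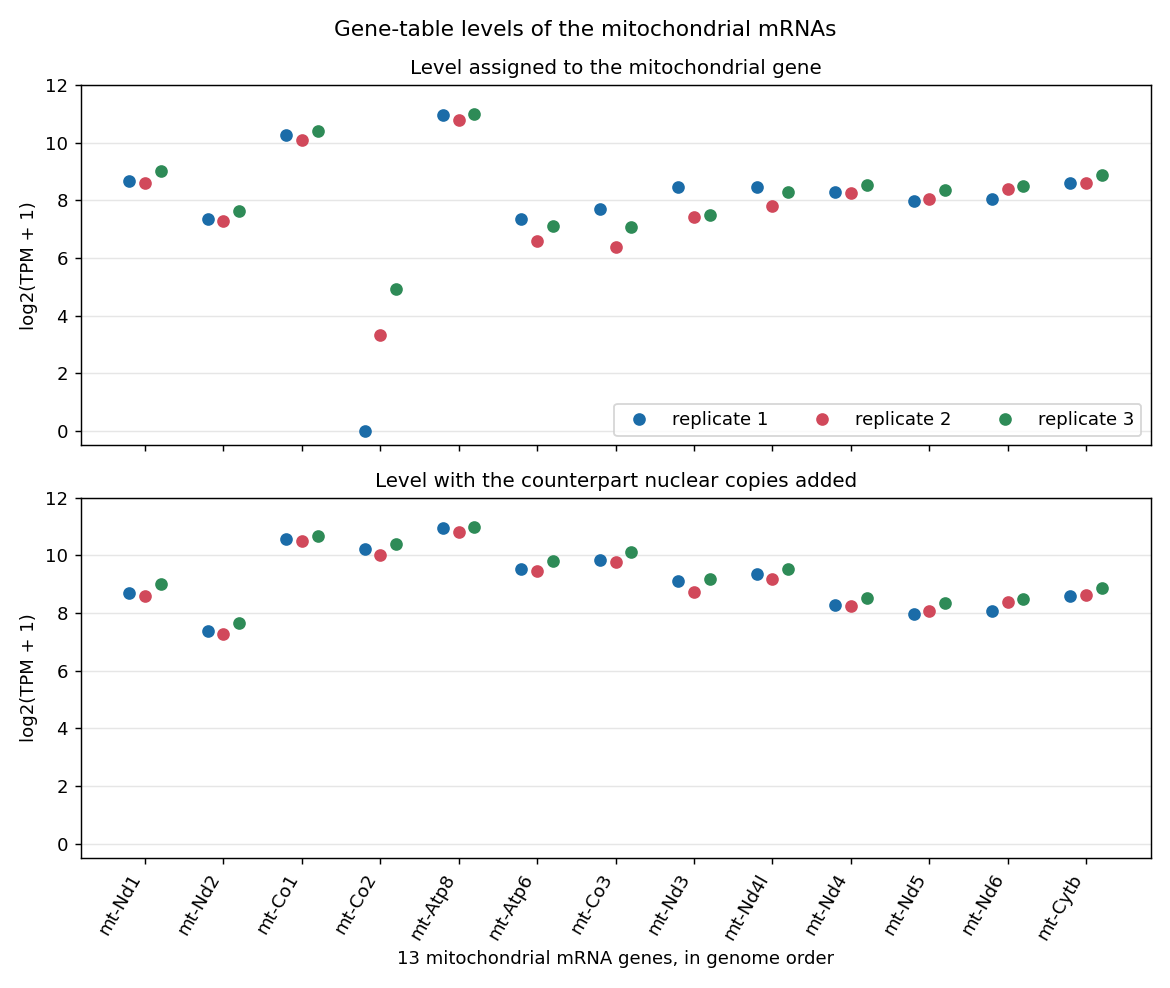
Points give log2(TPM + 1) of the 13 mitochondrial mRNAs in each of 3 libraries, in genome order, for the gene alone (top) and with its nuclear copies added (bottom). mt-Co2 goes from 0, 9.08 and 29.3 TPM alone to 1202, 1027 and 1329 TPM with the copies.

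The 7 complex I mRNAs encode the hydrophobic membrane arm of NADH dehydrogenase. In the gene tables mt-Nd1 (chrM:2751-3707, ENSMUSG00000064341.1) was at 408, 383 and 511 TPM, mt-Nd4 at 312, 301 and 368 TPM and mt-Nd5 at 251, 265 and 327 TPM in replicates 1, 2 and 3. mt-Nd2 was the lowest of the complex I mRNAs by mean, at 163, 154 and 199 TPM. For all 4 of these replicate 3 was the highest library. The short mRNAs mt-Nd3 and mt-Nd4l were at 347, 169 and 177 TPM and at 351, 224 and 308 TPM, with replicate 1 highest. Both have a near-complete copy. With copies added mt-Nd3 was at 547, 424 and 578 TPM and mt-Nd4l at 656, 583 and 732 TPM, and replicate 3 was highest for both.

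mt-Cytb (chrM:14145-15288, ENSMUSG00000064370.1), the one mitochondrial subunit of complex III, has no copy by the criteria used and was at 387, 389 and 464 TPM. Complex IV, cytochrome c oxidase, has 3 mitochondrial subunits, of which mt-Co1 is the catalytic core. mt-Co1 (chrM:5328-6872, ENSMUSG00000064351.1) was at 1226, 1101 and 1336 TPM. mt-Co3 was at 208, 82.1 and 132 TPM alone and at 909, 876 and 1113 TPM with its copy. mt-Co2 (chrM:7013-7696, ENSMUSG00000064354.1) was at 0, 9.08 and 29.3 TPM alone, while Gm28661 stood at 1202, 1018 and 1300 TPM. The gene tables also give a posterior mean and SD for each count. For mt-Co2 the counts were 0, 432 and 1015, against posterior means of 3173, 6188 and 4906 with posterior SDs of 1328, 1851 and 1312. The posterior SD was 0 for mt-Nd1, mt-Nd2, mt-Nd5, mt-Nd6, mt-Atp8 and mt-Cytb in every library.

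The ATP synthase subunits mt-Atp8 and mt-Atp6 are read from 1 bicistronic mRNA and their reading frames overlap by 43 bases. The overlap is printed here because its bases belong to both genes. Capitals mark the shared bases.
mt-Atp8 end: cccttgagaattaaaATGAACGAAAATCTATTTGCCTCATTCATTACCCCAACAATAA
mt-Atp6 start: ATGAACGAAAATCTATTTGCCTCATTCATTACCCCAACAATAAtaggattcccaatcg

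mt-Atp8 had the highest TPM of all members, at 1990, 1779 and 2016. It is also the shortest mRNA, with 204 bases, and the effective length by which its counts were divided was 12.2, 22.2 and 19.3 bases in replicates 1, 2 and 3. Its counts were 1611, 4026 and 2953. On CPM per kilobase of annotated length (length-scaled counts, CPM being counts scaled to a fixed library total), mt-Atp8 ranked 7 of 13 rather than 1 of 13. mt-Atp6 was at 163, 95.5 and 138 TPM alone and at 740, 703 and 898 TPM with Gm10925.

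With copies added, length-scaled counts gave nearly the same order in both quantifications. mt-Co1 led, at 2112, 1877 and 2096 in the gene tables and 2110, 1692 and 1802 in the second quantification, above mt-Co2 in every library. In the gene tables mt-Co2 followed at 1489, 1300 and 1548, then mt-Co3 at 1217, 1179 and 1386. Their ranges overlap between libraries, but within each library mt-Co2 was above mt-Co3. mt-Atp6 came next at 916, 888 and 1045, with no library reaching the lowest of mt-Co3. mt-Cytb (596, 588 and 653) and mt-Nd1 (593, 552 and 684) lay lower and overlap each other, and their order changed in replicate 3. The ranges of mt-Nd4 (502, 473 and 540) and mt-Nd5 (426, 436 and 503) also overlap, with mt-Nd4 above mt-Nd5 within each library. mt-Nd3, mt-Nd6, mt-Nd4l and mt-Atp8 had means between 310 and 329 and all overlap. mt-Nd2 was lowest by mean at 243, 227 and 273, a range that overlaps those of mt-Nd6, mt-Nd4l and mt-Atp8 in the gene tables. Within each library mt-Nd2 was below mt-Nd6 and mt-Nd4l, but in replicate 1 it was above mt-Atp8. Without the copies mt-Co2 ranked 13 of 13 and mt-Atp6 10 of 13.

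**Figure D2:**
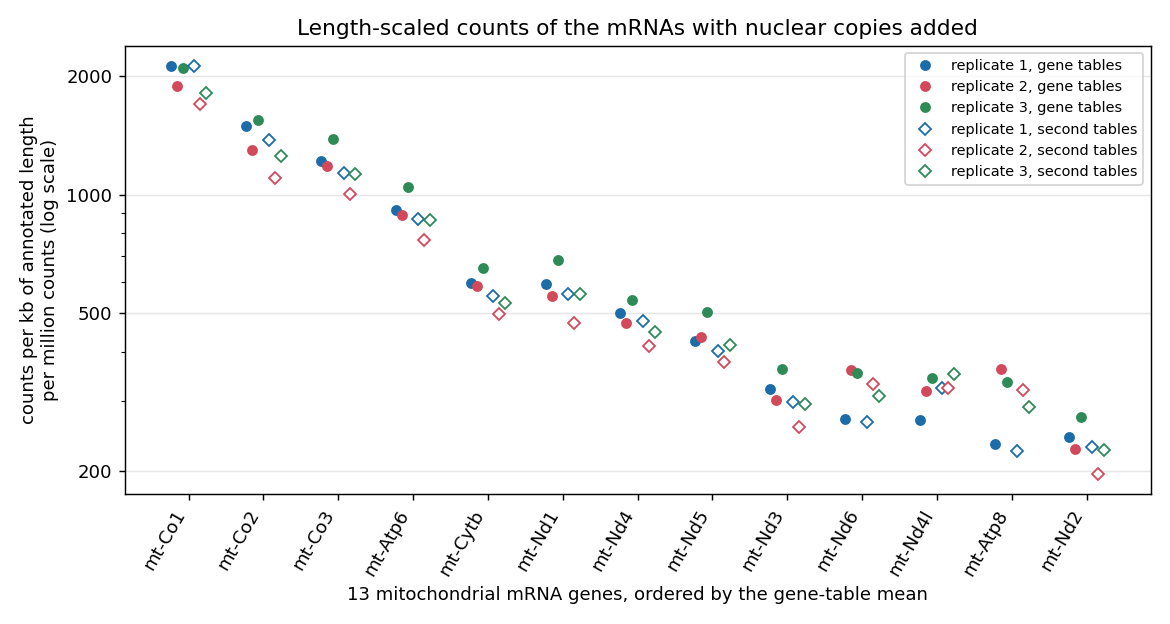
Points give CPM per kilobase of annotated length (log scale) of the 13 mRNAs with nuclear copies added, for each library and both quantifications. The order runs from mt-Co1 at a gene-table mean of 2028 to mt-Nd2 at 248.

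The division of counts between a member and its copies differed between the quantifications. Of the counts of mt-Atp6 and its copy, the gene tables gave mt-Atp6 22.1%, 13.7% and 15.4% in replicates 1, 2 and 3, and the second quantification gave it 99.9%, 99.2% and 99.9%. For mt-Nd4l the gene tables gave 54.3%, 39.2% and 42.8% and the second quantification 100% in every library. mt-Co3 received 22.9%, 9.39% and 11.9% against 41.7%, 32.7% and 45.1%. mt-Co2 received little in either, 0%, 0.889% and 2.22% against 6.49%, 6.50% and 9.64%. mt-Nd3 received 64.0%, 40.4% and 31.1% against 51.7%, 53.1% and 47.2%, so its order between the quantifications was not the same in every library. mt-Co1 kept between 93.2% and 96.5% in both. mt-Nd4 was given all counts in the gene tables and at least 98.6% in the second quantification.

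**Figure D3:**
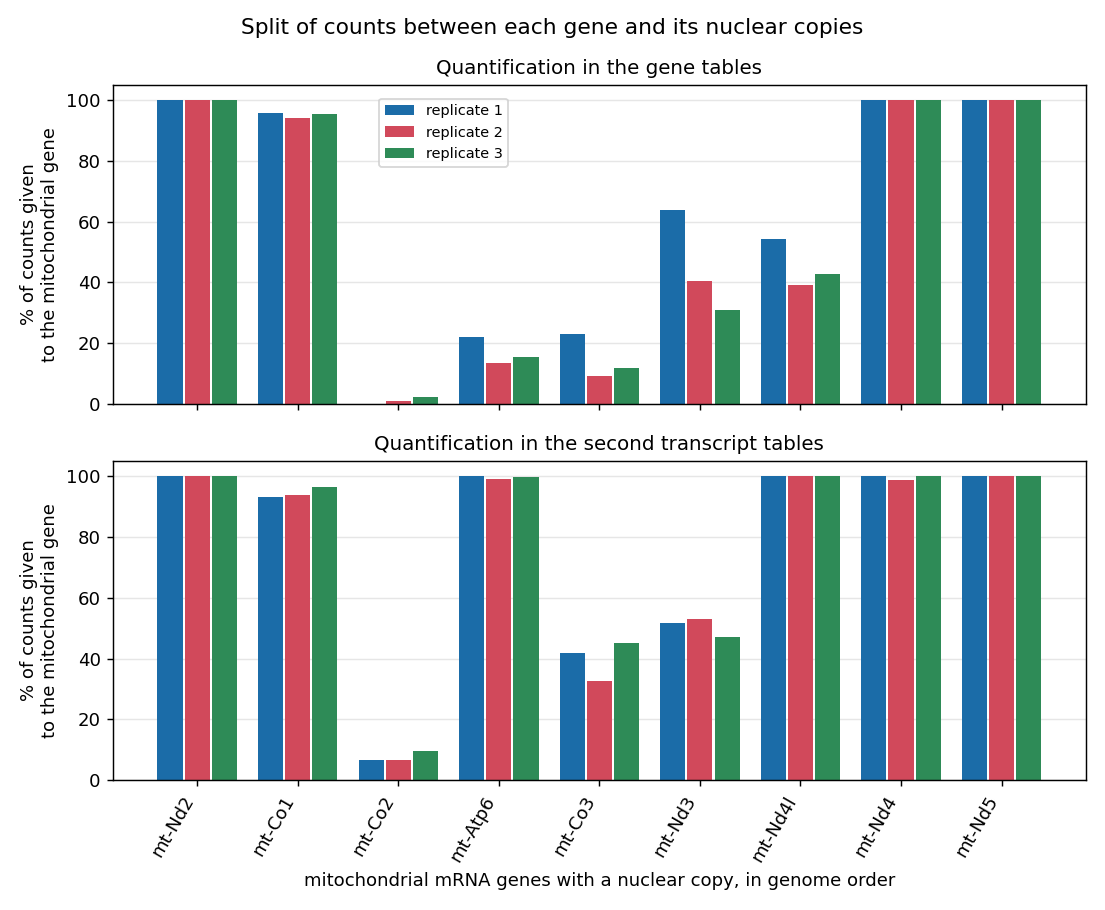
Bars give, for the 9 mRNAs with a nuclear copy, the percent of counts of the gene and its copies that were assigned to the mitochondrial gene, per library, in the gene tables (top) and the second quantification (bottom). The quantifications stand furthest apart at mt-Atp6, with 13.7% to 22.1% against 99.2% to 99.9%.

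In CPM the quantifications gave a log2 ratio (second over gene tables, 0.1 added to both) of 2.10, 2.64 and 2.42 for mt-Atp6 in replicates 1, 2 and 3, 1.15, 1.37 and 1.25 for mt-Nd4l and 9.26, 2.61 and 1.81 for mt-Co2. The value of 9.26 rests on a gene-table count of 0 and depends on the amount added. On this scale 3 of 13 mRNAs differed by 2-fold or more in every library, all higher in the second quantification, against 1.98% in either direction of the 6176 genes at 5 TPM or more. Over all 13, ratios ran from -0.42 to 9.26, and with copies added from -0.31 to 0.27. Members with no copy lay between -0.30 and -0.03, and the median over all genes was -0.05, -0.20 and -0.26 in replicates 1, 2 and 3. With copies added none of the 13 passed 2-fold, against 1.90% of 6170 genes.

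On TPM 1 of 13 mRNAs differed 2-fold in every library, against 2.72% of 6176 genes in either direction and, by direction, 1.93% lower and 0.793% higher in the second quantification. This was mt-Atp8, at 464, 323 and 266 TPM in the second quantification, a log2 ratio of -2.10, -2.46 and -2.92. In CPM the log2 ratio of mt-Atp8 was only -0.05, -0.17 and -0.21, so its counts were close in the quantifications. The TPM ratio over all genes had a median of -0.46, -1.38 and -1.63, so the TPM scales themselves differ between the quantifications and by library. Without replicate 1 the number rose to 9 of 13, along with 95.7% of all genes. Without replicate 3 it was 3 (mt-Co2, mt-Atp8 and mt-Atp6), with 3.03% of all genes. Relative to the median ratio, an alternative chosen after seeing the data, mt-Co2, mt-Atp8 and mt-Atp6 passed, with 2.64% of all genes.

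**Figure D4:**
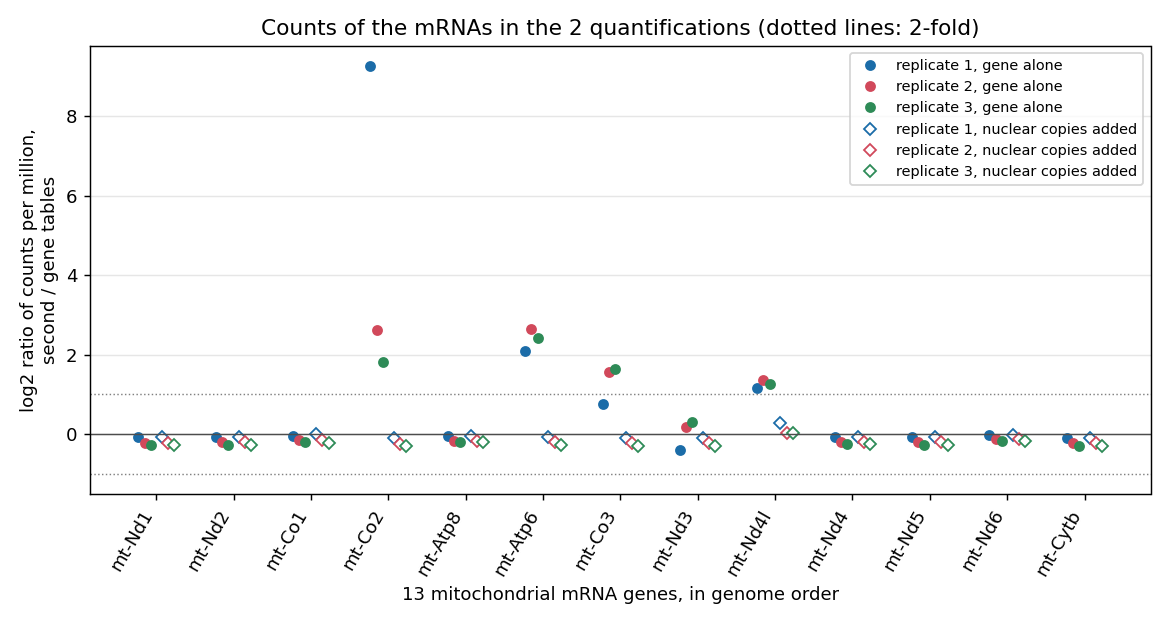
Points give the log2 ratio of CPM (second quantification over gene tables) for the 13 mRNAs in each library, filled for the gene alone and open with nuclear copies added. Open points lie between -0.31 and 0.27, while filled points of mt-Co2, mt-Atp6 and mt-Nd4l lie above the 2-fold line in all 3 libraries.

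The 3 libraries differed beyond counting error for all 13 mRNAs in both quantifications, by a chi-square test of rounded counts against TMM effective library sizes with Benjamini-Hochberg adjustment over all genes. The background is wide, since 50.1% of 13494 genes tested passed in the gene tables and 58.9% of 15861 in the second quantification. Without replicate 3 mt-Nd1, mt-Nd2 and mt-Nd4 no longer passed (10 of 13, with 36.1% of all genes passing), and without replicate 2 mt-Nd4l did not (12 of 13, with 42.2% of all genes). The test sizes differences against counting error only, so genes with more counts pass more readily. In bulk libraries of a cytosolic fraction, a different share of cells, RNA content per cell or carry-over of mitochondria cannot be told apart. Sized as a coefficient of variation (CV, SD over mean) of TMM-scaled CPM, the median of the 13 mRNAs was 11.1% in the gene tables and 9.32% with copies added. In the second quantification these were 13.5% and 12.2%. The common CV of an edgeR fit over all genes tested was 14.5% in the gene tables and 20.6% in the second quantification. This common CV leaves out counting error, which the CVs of the mRNAs include.

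Among the mRNAs the widest CVs in the gene tables were those of mt-Co2 at 113%, mt-Co3 at 42.9% and mt-Nd3 at 31.4%, each with a near-complete copy. With copies added these were 7.38%, 9.29% and 9.21%. The other mRNAs with a near-complete copy were not alike. mt-Atp6 was at 21.5% alone and 9.39% with copies, while mt-Nd4l was at 6.79% alone and rose to 14.9% with copies. mt-Co1 was the steadiest, at 4.91% alone and 4.09% with copies. mt-Atp8 was at 45.8, 76.2 and 68.8 TMM-scaled CPM and mt-Nd6 at 135, 193 and 184, CVs of 24.9% and 18.2%, and neither has a copy by the criteria used. Both were lowest in replicate 1. On TMM-scaled CPM with copies added, 11 of 13 mRNAs were lowest in replicate 1 and 11 of 13 highest in replicate 3. These numbers were the same in the gene tables and the second quantification. The order of libraries depends on the scale. Members and copies summed to 0.934%, 0.865% and 1.05% of gene-table TPM, lowest in replicate 2. They held 0.886%, 0.758% and 0.829% of counts in the second quantification, lowest in replicate 2 and highest in replicate 1. The shortfall of effective from annotated length of mt-Nd5, which reflects the fragment length used in the quantification, was 251, 218 and 228 bases in replicates 1, 2 and 3, with replicate 1 the longest. Its part in the low counts of short mRNAs in replicate 1 was not tested.

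mt-Nd6 (chrM:13552-14070, ENSMUSG00000064368.1) is the only mRNA transcribed from the other strand than the remaining 12, and its transcript reads from what is called the light-strand promoter. Its 3′ end overlaps that of mt-Nd5 on the opposite strand by 14 bases, marked by capitals in both, each written 5′ to 3′ on its own strand.
mt-Nd5 end: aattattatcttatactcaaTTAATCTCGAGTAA
mt-Nd6 end: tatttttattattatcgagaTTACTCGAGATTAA

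The strand bias in base composition is plain in mt-Nd6, which has 5.97% C, 28.1% G and 43.7% T. The 12 others have medians of 26.0% C, 11.0% G and 29.4% T, and none has under 22.1% C or over 16.1% G. mt-Nd6 was at 266, 331 and 357 TPM, below the median of the 12 in replicate 1 and above it in replicates 2 and 3. The difference was 0.10 ± 0.38 on the log2(TPM + 1) scale (SD, n = 3; two-sided exact sign-flip p = 0.75, where 3 libraries allow no p under 0.25). The sign turned without replicate 2 (-0.068), in the second quantification (-0.23) and with copies added. With copies added to the 12, mt-Nd6 was lower in every library, by 1.17, 0.58 and 0.86 (mean -0.87 ± 0.29; exact sign-flip p = 0.25). Strandedness is not given in the sources used here, so reads of mt-Nd6 and of transcripts from the opposite strand of this region cannot be told apart.

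The ribosomal RNAs mt-Rnr1 (12S, chrM:70-1024) and mt-Rnr2 (16S, chrM:1094-2675) are known as the most abundant mitochondrial transcripts in cells. Here they were measured after depletion of ribosomal RNA and had the lowest mean TPM of the members longer than a tRNA. mt-Rnr1 had 311, 722 and 341 counts and stood at 6.63, 9.59 and 6.18 TPM. mt-Rnr2 had 288, 742 and 360 counts and stood at 3.25, 5.33 and 3.50 TPM. Together they held 0.00115% ± 0.000297 of TPM (SD, n = 3). Both were highest in replicate 2 (13.7 and 14.0 TMM-scaled CPM, against 7.94 to 8.84 in the others) and differed between libraries by the chi-square test. mt-Rnr1 exceeded mt-Rnr2 in every library, by 0.75 ± 0.09 on the log2(TPM + 1) scale (SD, n = 3; exact sign-flip p = 0.25). In the second quantification mt-Rnr2 had more counts than in the gene tables, at 575, 1659 and 1093, and the difference was 0.07 ± 0.28, with replicate 3 in the opposite direction (exact sign-flip p = 0.75).

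The 22 tRNAs, 59 to 75 bases long, were all listed at 0 in the gene tables, where the effective length of each is also 0 in every library. A 0 there therefore does not measure absence. The second quantification gave them 257, 425 and 441 estimated counts in replicates 1, 2 and 3, and 9 tRNAs had a count in every library. These libraries have a labelled size range of 250 to 400, above the length of any tRNA. The tables do not separate reads of mature tRNA from reads of longer RNA that holds the gene.

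The counts fell mostly on genes annotated on the light strand, where 8 of the 22 tRNAs lie. These held 252 of 257, 411 of 425 and 416 of 441 counts (98.1%, 96.7% and 94.3%). mt-Tp, the proline tRNA next to the control region, had 193, 242 and 229 counts, the most in every library. mt-Tc (cysteine) had 22, 43 and 33, mt-Ts1 (serine) 18, 44 and 39, mt-Ty (tyrosine) 13, 19 and 15 and mt-Tn (asparagine) 4, 18 and 13. mt-Te (glutamate), between mt-Nd6 and mt-Cytb, had 1, 40 and 79, the largest ratio between libraries among the light-strand tRNAs with a count in each. mt-Ta (alanine) had 1, 2 and 5 and mt-Tq (glutamine) 0, 3 and 3. Reads from heavy-strand transcripts across these 8 genes cannot be told apart from light-strand reads here, as strandedness is not given.

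Of the 14 heavy-strand tRNAs, mt-Th (histidine) had 3, 3 and 12 counts and mt-Tm (methionine) 1 in each library. mt-Tf, mt-Tv, mt-Tl1, mt-Ti, mt-Tw, mt-Tk, mt-Tg, mt-Ts2 and mt-Tl2 had between 0 and 3 counts in a library and 0 in at least 1. mt-Td (aspartate), mt-Tr (arginine) and mt-Tt (threonine) had none in any library, which allows up to 0.0800, 0.0448 and 0.0543 CPM in replicates 1, 2 and 3 (3 counts of the total, counting error only). The tRNAs with the most counts and the 3 with none are printed from the M21 transcripts, with the anticodon in capitals. They differ little in length.
mt-Tp: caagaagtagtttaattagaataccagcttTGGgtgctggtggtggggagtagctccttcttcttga
mt-Te: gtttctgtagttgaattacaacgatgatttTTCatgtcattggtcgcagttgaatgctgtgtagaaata
mt-Tc: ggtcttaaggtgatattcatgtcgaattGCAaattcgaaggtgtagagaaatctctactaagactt
mt-Ts1: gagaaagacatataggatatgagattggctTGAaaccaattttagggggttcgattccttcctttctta
mt-Td: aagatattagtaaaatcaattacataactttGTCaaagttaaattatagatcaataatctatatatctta
mt-Tr: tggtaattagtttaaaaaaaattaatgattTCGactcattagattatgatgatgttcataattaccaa
mt-Tt: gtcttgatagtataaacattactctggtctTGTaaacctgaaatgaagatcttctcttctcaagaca

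**Figure D5:**
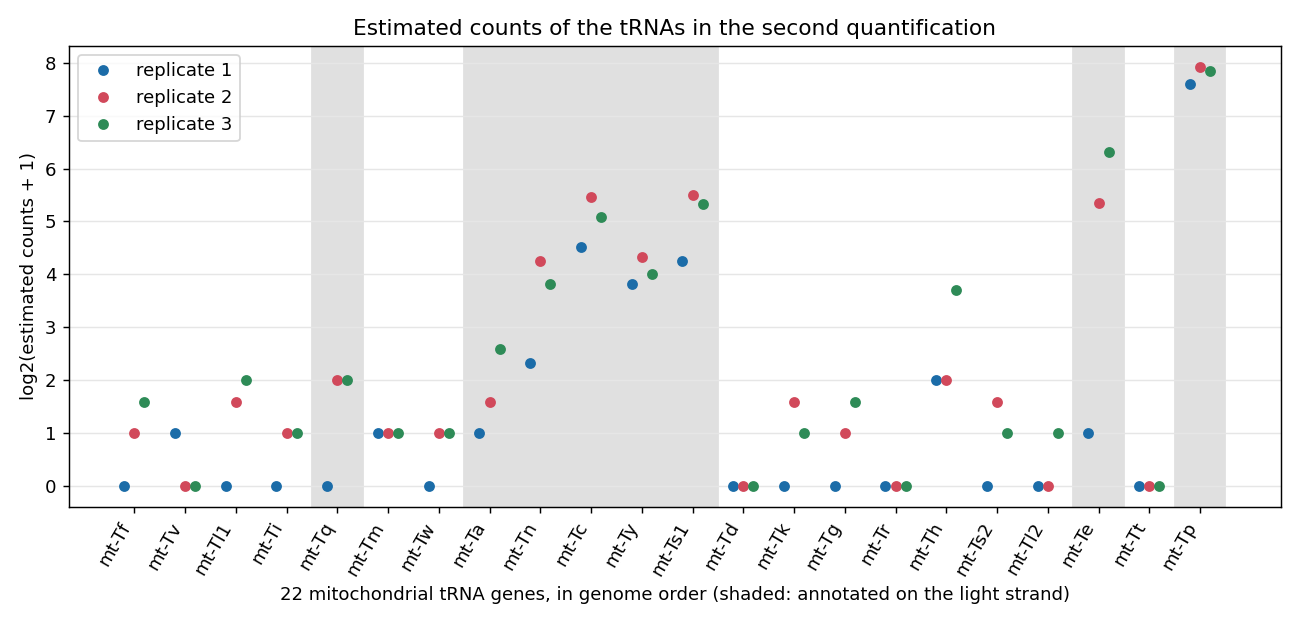
Points give log2(estimated counts + 1) of the 22 tRNAs per library in the second quantification, in genome order, with genes annotated on the light strand shaded. mt-Tp stands highest with 193 to 242 counts, and mt-Td, mt-Tr and mt-Tt are at 0 in all 3 libraries.

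mt-Tt and mt-Tp lie next to each other on opposite strands (chrM:15289-15355 and chrM:15356-15422) with no base between them. mt-Tt had no count in any library and mt-Tp had at least 193. mt-Ts1 (chrM:6870-6938) overlaps the end of mt-Co1 by 3 bases on the opposite strand, and its neighbour mt-Td had none.

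The nuclear partners of the mitochondrial subunits were measured in the same libraries. A list of 31 nuclear subunits of complexes I, III, IV and V had a median of 45.6 ± 4.16 TPM (SD, n = 3). The mitochondrial mRNAs exceeded it in every library, by 2.85, 2.57 and 2.68 on the log2(TPM + 1) scale (mean 2.70 ± 0.14, exact sign-flip p = 0.25). With copies added the difference was 3.47 ± 0.21. Both sides were measured in cytosolic RNA, and carry-over of mitochondria into it was not measured. The difference therefore need not hold in whole cells. By complex, the median mean TPM of mitochondrial against nuclear subunits was 294 against 20.5 for complex I, 413 against 18.9 for complex III, 141 against 99.9 for complex IV and 1030 against 51.0 for complex V. The complex V value is the midpoint of only 2 mRNAs, mt-Atp8 at 1928 TPM and mt-Atp6 at 132 TPM. It depends on the effective length of mt-Atp8, 12.2 to 22.2 bases. With copies added the mitochondrial median was 327 for complex I, 413 for complex III, 1186 for complex IV and 1354 for complex V.

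Cox4i1, a regulatory subunit of complex IV, was the highest nuclear subunit of the list at 219, 224 and 234 TPM. Atp5b, the catalytic beta subunit of ATP synthase, was at 163, 150 and 193 TPM. Cox6c and Cox6b1, small subunits of complex IV, had means of 114 ± 7.35 and 107 ± 5.09 TPM (SD, n = 3). The lowest entry was 1 of the annotated entries of Atp5o, at 0, while the other Atp5o entry was at 42.4, 40.7 and 47.3 TPM. Both entered the list median. With entries under a mean of 1 TPM left out, the mitochondrial mRNAs exceeded the list by 2.65 ± 0.19 on the log2(TPM + 1) scale (SD, n = 3). Next lowest was Ndufv1, an NADH-binding subunit of complex I, at 11.0 ± 1.60 TPM (SD, n = 3). Of 31 nuclear subunits tested 25 differed between libraries, against the 50.1% of all genes. Genes were not matched for count level, on which this test depends, so the share does not compare their steadiness.

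The nuclear genes that transcribe, process and maintain mitochondrial RNA and DNA were far lower. Of 47 listed names 46 matched, 40 reached 1 TPM in each library, and their median was 3.32 ± 0.376 TPM (SD, n = 3). The highest were Slirp, which binds mitochondrial mRNAs together with Lrpprc, at 24.7, 17.5 and 22.1 TPM, Rexo2, an oligoribonuclease, at 20.6 ± 0.856 TPM (SD, n = 3), Grsf1, an RNA granule protein, at 13.5, 13.0 and 14.6 TPM, and Hsd17b10, a subunit of mitochondrial RNase P, at 11.4, 12.2 and 12.9 TPM. The lowest were Mterf2, at 0.05, 0.10 and 0.07 TPM, and Mterf1b, at 0.40, 0.36 and 0.46 TPM, both of the mitochondrial transcription termination factor family. Of 45 tested 9 differed between libraries, against the same 50.1%. These genes are low and were likewise not matched for count level, so the share does not show that they are steadier.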

How the data were processed

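Counts and TPM were deposited by the authors. The gene tables hold expected (estimated) counts and TPM for annotation M21 of mm10, per the file headers, laid out as RSEM writes them. The second transcript tables hold estimated counts and TPM in the layout kallisto writes, deposited by the authors, and were summed per gene. For aligner, quantifiers and strandedness no statement was at hand (not given in the sources used here). TPM divides by effective length, so short mRNAs depend on it. The members, gene lists and tests were chosen with earlier results of these data known. Every mt- gene is named, with the 4 highest and 2 lowest of the nuclear lists and copies at 1 TPM or more. Prorp did not match, and 1 symbol of the nuclear subunit list has a second entry.

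Copies were found with BLAST+ 2.17.0 against the M21 transcripts, and adding their values was decided after seeing the data. Libraries were compared over genes whose rounded counts sum to at least 30, at an adjusted p of 0.05, with TMM from edgeR 4.0.16 (R 4.3.3) and DESeq2 1.42.0 size factors as an alternative. Levels used log2(TPM + 1), which understates differences of low genes. No untreated library was analysed here. Python 3.11.15 with numpy 2.4.6, pandas 2.3.3, scipy 1.17.1 and matplotlib 3.10.9 was used, and the chi-square procedure was tested on simulated data.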

Additional observations from a re-analysis of the deposited data

How the results depend on the processing

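Of 56 alternatives, 42 kept the direction of a difference, left a count within 1.5 times or moved the share by less than 1 SD. Sizes of differences could still move. The mRNA share of TPM was 0.275% in the second quantification, 2.37% rescaled over protein-coding genes, 0.664% as a share of counts and 0.951% with nuclear copies added, and 0.568% to 0.622% leaving out each replicate. The number of mRNAs that differed between libraries was 13 with every scaling, filter and quantification tried, beside 31.7% to 58.9% of all genes tested. Leaving out each replicate it was 10 to 13, beside 27.5% to 42.2% of all genes. mt-Nd4l was not called without replicate 2, and mt-Nd1, mt-Nd2 and mt-Nd4 were not called without replicate 3. For mt-Nd6 against the heavy-strand mRNAs the difference turned to -0.23 in the second quantification, to -0.87 with copies added, to -0.75 on counts per kilobase with copies added and to -0.068 without replicate 2 (range leaving out each replicate -0.068 to 0.31). The cause of the other sign changes was not tested, while adding copies raises the heavy-strand median by construction. The difference from the listed nuclear subunits ranged from 2.35 to 3.47 over its 9 alternatives and mt-Rnr1 against mt-Rnr2 from 0.07 to 0.88 over 7, with no change of sign in either mean. The number of mRNAs differing 2-fold between quantifications was 1 on TPM, 3 on CPM, 3 relative to the median ratio and 0 on CPM with copies added. The shares over all genes were 2.72%, 1.98%, 2.64% and 1.90%. Without replicates 1, 2 and 3 in turn the number was 9, 1 and 3, beside 95.7%, 2.81% and 3.03% of all genes. tRNAs with a count in every library numbered 0 in the gene tables, also without each replicate, and 9 in the second quantification, of which 6 had 3 or more. With 3 libraries the sign-flip test cannot pass 0.05, and the lowest p is 0.25. No paired analysis was possible because there is 1 group.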
